A study of Mus musculus with 12 samples.

Results

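Voltage-gated and potassium ion channel genes were examined in the hearts of C57BL/6 mice. The set holds every gene whose GENCODE symbol begins with Kcn, Hcn or Cacn, begins with Scn followed by a digit, or is Abcc8 or Abcc9. The annotation of GRCm38 lists 145 such genes, 5 of them non-coding. A gene value, the FPKM (fragment counts divided by transcript length and sequencing depth) summed over a gene's transcripts, was present in all 12 libraries for 41 of the 145, out of 12866 genes in all. A limit of 1 FPKM in no fewer than 4 libraries left 34 of the 41 among 11509 genes for testing. All mice were wild type (WT) and were followed over 3 days, with 4 mice in each of 3 groups. LPS+XJDHT mice received lipopolysaccharide at 10 mg/kg and XJDHT at 50 mg/kg per day, LPS mice received the same lipopolysaccharide dose and saline, and Control mice received saline only. Lipopolysaccharide (LPS) comes from the outer membrane of Gram-negative bacteria and is used as a model of sepsis, and XJDHT stands for the herbal preparation Xijiao Dihuang decoction named in the study's title. The labels give neither age nor sex.

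Each heartbeat is an action potential shaped by these proteins. Sodium channels start it, L-type calcium channels sustain it and trigger contraction, and several potassium currents end it and hold the resting potential. The mouse ventricle repolarizes fast, mainly through a transient outward and several slower voltage-gated potassium currents, and pore proteins work together with auxiliary subunits that set their number at the membrane and their gating.

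The libraries were of like depth, between 73.76 M and 77.81 M fragments as recovered from the values. All 8 cardiomyocyte markers were measured, and their summed level was 5406 to 8042 FPKM in LPS+XJDHT hearts, 6074 to 7880 FPKM in LPS hearts and 14080 to 15830 FPKM in Control hearts. Of 7 tested cardiomyocyte markers, 4 fell in LPS against Control hearts (Actc1, Myh6, Myl2 and Tnni3), where 12% of all tested genes were lower. Tnnt2, Ryr2 and Pln did not pass the test used below. In LPS and Control hearts Tnnt2 averaged 1328 and 1366 FPKM, Ryr2 8.69 and 8.88 FPKM, and Pln 323 and 377 FPKM. Ttn, another of the 8, averaged 0.388 FPKM in LPS+XJDHT hearts, 2.66 FPKM in LPS hearts and 0.329 FPKM in Control hearts, and was not tested. These values cover only annotated transcripts listed in all 12 libraries, so they need not give the level of the whole Ttn gene. Summed neutrophil markers, 5 measured, lay at 72.9 to 148 FPKM in LPS+XJDHT hearts and 76.1 to 115 FPKM in LPS hearts, against 0.937 to 2.68 FPKM in Control hearts, where Camp was at 0 throughout. Summed small intestine markers, 6 measured, lay at 0.307 to 1.37 FPKM in LPS+XJDHT hearts, 11.2 to 16.8 FPKM in LPS hearts and 0.539 to 1.58 FPKM in Control hearts. In whole-heart RNA fewer cells of a type and less RNA per cell cannot be told apart, and the part of these marker shifts in the channel values was not tested.

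The comparison of LPS with Control hearts asks which channel genes differ after endotoxin. Of the 34 tested channel genes 12 fell and 4 rose (limma on log2(FPKM + 1), Benjamini-Hochberg adjusted p below 0.05 over all tested genes), against a background of 12% lower and 26.6% higher among all 11509 genes. The 12 that fell encode parts of potassium, pacemaker, sodium and calcium channels: Kcnip2, Kcnk3, Kcna5, Scn4b, Kcnq1, Kcnd2, Kcnj3, Hcn2, Kcnj12, Abcc9, Hcn4 and Cacna2d1. Kcne4 rose most, and Kcnab2, Cacna1d and Cacng7 rose by smaller amounts. All fold changes are on that scale, which understates the change of genes near 1 FPKM. The median log2 fold change was -0.38 over the 34 channel genes and 0.16 over all tested genes, and 26 of the 34 fold changes were below 0, against 38.2% of all genes. In 10 channel genes all 4 LPS hearts lay below all 4 Control hearts and in 3 they lay above them, against 12.1% and 25.3% of all genes. With each library rescaled by its median ratio over the tested genes, the median over all genes was 0.01, and 2145 genes were called higher and 2112 lower, where the unscaled values gave 3063 higher and 1384 lower. Under that scaling 12 channel genes were still lower and 2 were higher, Kcne4 and Cacna1d. The gene sums leave out transcripts that only the Control and LPS libraries list. Every such channel transcript averaged less in LPS than in Control hearts. With all Control and LPS transcripts 15 of 32 tested channel genes were lower and 2 higher. Of all 11089 genes tested in that fit 1454 were lower and 2665 higher.

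**Figure D1:**
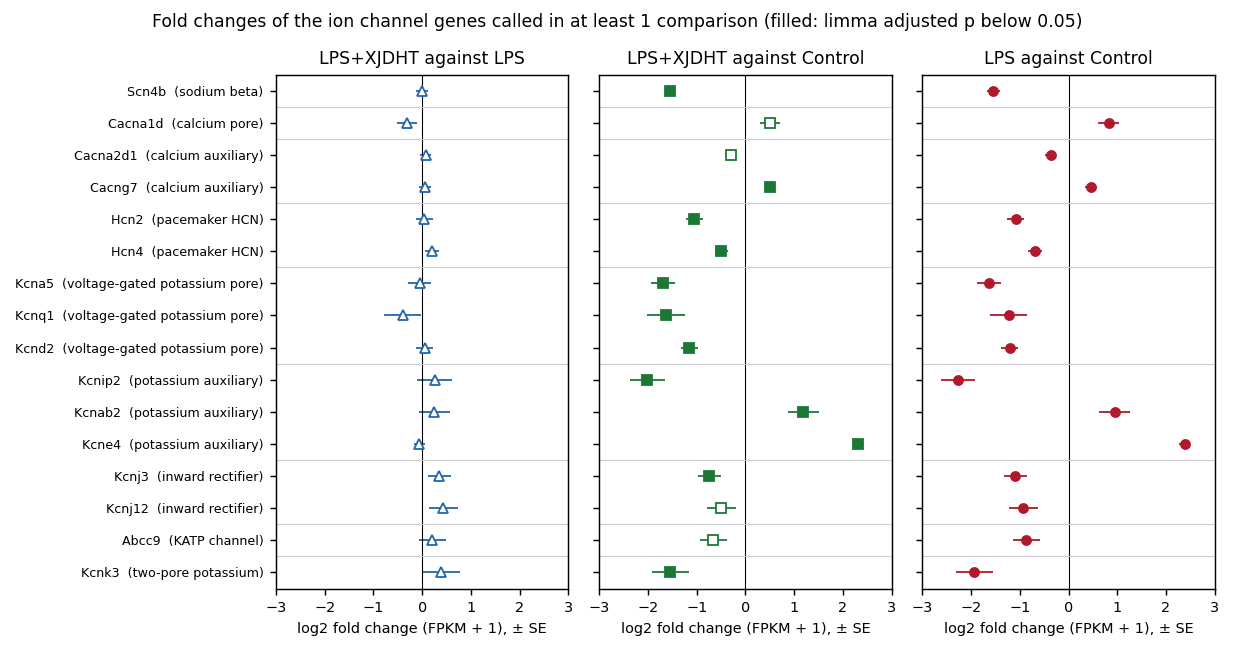
log2 fold change ± SE, in 3 comparisons, of the 16 tested ion channel genes called in at least 1 of them, grouped by role; filled symbols passed the adjusted threshold of 0.05. In LPS against Control 12 genes are filled to the left of 0 and 4 to the right, in LPS+XJDHT against Control 9 and 3, and in LPS+XJDHT against LPS 0.

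The start regions of 4 genes with large changes are shown because they stand for both directions and for pore and auxiliary subunits: Kcne4 was higher and Kcnip2, Scn4b and Kcna5 were lower in LPS hearts. Each is the RefSeq window (GRCm38.p6) from 250 bases before to 50 bases after the annotated start, 5′ to 3′ on the gene's strand, with CG dinucleotides in capitals. The Kcne4 window lies at chr1:78816661-78816960 on the plus strand, Kcnip2 at chr19:45816014-45816313 on the minus strand, Scn4b at chr9:45138374-45138673 on the plus strand and Kcna5 at chr6:126535506-126535805 on the minus strand.
Kcne4: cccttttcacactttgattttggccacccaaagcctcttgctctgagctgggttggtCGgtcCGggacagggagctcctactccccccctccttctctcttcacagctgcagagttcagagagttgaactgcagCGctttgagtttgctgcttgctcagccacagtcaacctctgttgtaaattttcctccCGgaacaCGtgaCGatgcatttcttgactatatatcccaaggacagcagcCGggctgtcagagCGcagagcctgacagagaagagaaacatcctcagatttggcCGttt
Kcnip2: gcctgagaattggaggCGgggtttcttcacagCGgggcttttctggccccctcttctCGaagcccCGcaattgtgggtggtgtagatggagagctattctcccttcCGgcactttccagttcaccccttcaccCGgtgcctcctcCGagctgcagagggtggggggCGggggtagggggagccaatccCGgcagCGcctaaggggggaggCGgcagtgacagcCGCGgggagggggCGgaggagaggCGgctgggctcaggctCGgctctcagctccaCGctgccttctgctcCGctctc
Scn4b: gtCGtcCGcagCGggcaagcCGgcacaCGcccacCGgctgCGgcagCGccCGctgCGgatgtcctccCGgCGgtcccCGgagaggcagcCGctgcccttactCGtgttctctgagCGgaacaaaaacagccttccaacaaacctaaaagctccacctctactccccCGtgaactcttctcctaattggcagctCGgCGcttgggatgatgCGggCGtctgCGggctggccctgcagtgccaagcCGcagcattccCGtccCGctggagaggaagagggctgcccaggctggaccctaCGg
Kcna5: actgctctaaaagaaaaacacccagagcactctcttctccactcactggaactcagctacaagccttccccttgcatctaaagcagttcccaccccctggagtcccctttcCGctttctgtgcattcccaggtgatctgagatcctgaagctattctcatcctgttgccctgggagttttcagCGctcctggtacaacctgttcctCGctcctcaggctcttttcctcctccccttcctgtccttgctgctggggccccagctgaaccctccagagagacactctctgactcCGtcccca
These windows hold 9 CG dinucleotides in Kcne4, 18 in Kcnip2, 26 in Scn4b and 4 in Kcna5, where the median over 32544 mouse windows of the same length was 7. The table held windows for 29 of the 41 measured channel genes. Among first windows, the 10 genes lower in LPS had a median GC content of 66.65% and a median of 22 CG dinucleotides. The 4 genes higher in LPS had medians of 57.35% and 12, and the 10 tested genes with no call had 61.15% and 14. The median GC content of all windows was 53%. Of the motifs searched on both strands, CACGTG was found in the first windows of Kcne4 and Kcnj2 (7.17% of all windows hold it), TATAAA in that of Cacna1d (13.6%) and AGATAA in that of Scn7a (11.2%). TGACGTCA (1.8% of all windows) and the NF-kB (4.53%), CArG box (1.64%) and MEF2 (0.559%) motifs had no match in the first windows of the measured channel genes.

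Kcnd2 and Kcnip2, genes of the transient outward potassium current, both fell. Kcnd2 encodes the pore of the fast transient outward current in rodent ventricle, and Kcnip2 encodes the calcium-binding subunit that brings Kcnd pores to the membrane. Kcnip2 was at 2.72, 2.79, 9.69 and 4.72 FPKM in the 4 LPS hearts and at 27.2, 18.8, 27.2 and 28.6 FPKM in the Control hearts. The groups did not overlap, and LPS 3, the highest LPS heart, was still well below Control 2, the lowest Control heart (log2 fold change -2.27 ± 0.36, adjusted p = 0.00048). Kcnd2 was at 1.24, 0.820, 1.90 and 1.78 FPKM in LPS hearts and at 4.55, 4.09, 4.20 and 5.35 FPKM in Control hearts, again without overlap (log2 fold change -1.21 ± 0.18, adjusted p = 0.00028). The median level of the whole Kcnip2 sum per unit of Kcnd2 was 3.03 in LPS hearts and 5.66 in Control hearts, and the single values of this ratio overlapped. That sum includes a retained-intron transcript, Kcnip2-204, at 11.7% to 63.8% of it in Control hearts. The ratio therefore does not give coding Kcnip2 per unit of Kcnd2. Kcnd3, the other transient outward pore, was at 0.487 ± 0.607 FPKM in LPS hearts and 0.919 ± 0.646 FPKM in Control hearts (SD, n = 4 each) and did not pass the test, with a 95% interval of the log2 difference from -1.27 to 0.49.

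The Kcnip2 value is a sum of 3 transcripts, of which Kcnip2-204 is annotated as a retained intron. Kcnip2-204 was at 0.814, 0.0209, 0.912 and 0.238 FPKM in LPS hearts and at 3.18, 11.8, 15.03 and 18.2 FPKM in Control hearts. It made up 0.75% to 29.9% of the Kcnip2 sum in LPS hearts and 11.7% to 63.8% in Control hearts. The 2 coding transcripts together were at 4.48 ± 3.05 FPKM in LPS hearts and 13.4 ± 7.41 FPKM in Control hearts (SD, n = 4 each), and LPS 3 then overlapped the Control range. With coding transcripts alone Kcnip2 still passed in LPS against Control (log2 fold change -1.42, adjusted p = 0.023) but not in LPS+XJDHT against Control (adjusted p = 0.052).

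Some pore genes of the slower repolarizing currents fell as well. Kcna5, which carries part of the slowly inactivating potassium current of mouse ventricle, was at 4.18, 1.94, 6.64 and 4.85 FPKM in LPS hearts and at 12.8, 16.1, 15.7 and 15.2 FPKM in Control hearts. Every LPS heart was far below every Control heart (log2 fold change -1.64 ± 0.24, adjusted p = 0.00031). Kcnq1, the slow delayed rectifier pore, was at 3.59, 3.15, 2.55 and 6.69 FPKM in LPS hearts and at 8.31, 8.87, 11.4 and 12.8 FPKM in Control hearts. These groups did not overlap either (log2 fold change -1.23 ± 0.38, adjusted p = 0.025), but the call was lost without Control 3, Control 4, LPS 1, LPS 2 or LPS 3 (adjusted p = 0.054 to 0.062). Kcnq1ot1, a non-coding gene that lies antisense within Kcnq1, had no annotated transcript listed in any library. Whether fragments were counted by strand is not given in the sources used here. Kcnh2, the rapid delayed rectifier pore, was at 5.24 ± 2.23 FPKM in LPS hearts and 7.67 ± 3.27 FPKM in Control hearts (SD, n = 4 each; 95% interval -1.36 to 0.38).

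Kcne4 encodes a single-span subunit known to suppress currents through Kcnq1 and Kcna3 pores. It was at 17.7, 15.4, 13.1 and 15.97 FPKM in LPS hearts and at 2.46, 2.495, 1.84 and 1.89 FPKM in Control hearts, with no overlap and little spread in either group. The log2 fold change was 2.38 ± 0.11 (adjusted p = 1.6e-07), and by mean level Kcne4 ranked 3 of 41 channel genes in LPS hearts and 24 in Control hearts. The median Kcne4 level per unit of Kcnq1 was 4.90 in LPS hearts and 0.222 in Control hearts. This ratio of RNA levels restates the rise of Kcne4 and the fall of Kcnq1 and is not separate evidence. Kcna3 had no annotated transcript listed in any library and so had no value. Kcne1, the subunit that slows Kcnq1 gating, was listed in the Control and LPS libraries only, at 1.03, 0.466, 0.545 and 0.261 FPKM in LPS hearts and at 3.51, 3.03, 5.59 and 5.07 FPKM in Control hearts. In a fit of those 8 libraries with all their transcripts Kcne1 was lower in LPS hearts (log2 fold change -1.74 ± 0.21, adjusted p = 0.00049). The same fit gave a lower Kcnv2, a silent potassium channel subunit, at 0.184 ± 0.103 FPKM in LPS hearts and 2.16 ± 0.341 FPKM in Control hearts (SD, n = 4 each; log2 fold change -1.41, adjusted p = 0.00013). Every transcript listed in those libraries averaged at least 0.5 FPKM in LPS or Control hearts, so a low-level gene listed there had to be present in one of these groups. Both genes entered that fit through their Control values. The highest LPS value of Kcnv2 was 0.321 FPKM, and LPS 1 was the only LPS heart that reached 1 FPKM of Kcne1.

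Kcnab2, a cytoplasmic subunit of Kcna pores, was at 1.19, 0.0839, 2.11 and 2.74 FPKM in LPS hearts and at 0.0519, 0.574, 0.205 and 0.0145 FPKM in Control hearts. The LPS 2 heart lay inside the Control range while the other LPS hearts were above it (log2 fold change 0.94 ± 0.32, adjusted p = 0.037). The call was lost without any of Control 1, Control 3, Control 4, LPS 1, LPS 3 or LPS 4 (adjusted p = 0.066 to 0.10), and another Kcnab2 transcript, listed in the Control and LPS libraries only, was not in this sum. No Control heart reached 1 FPKM of Kcnab2, so it entered the test through the LPS-treated hearts. Kcnab2 was named after its values were seen, as was Cacna1d.

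**Figure D2:**
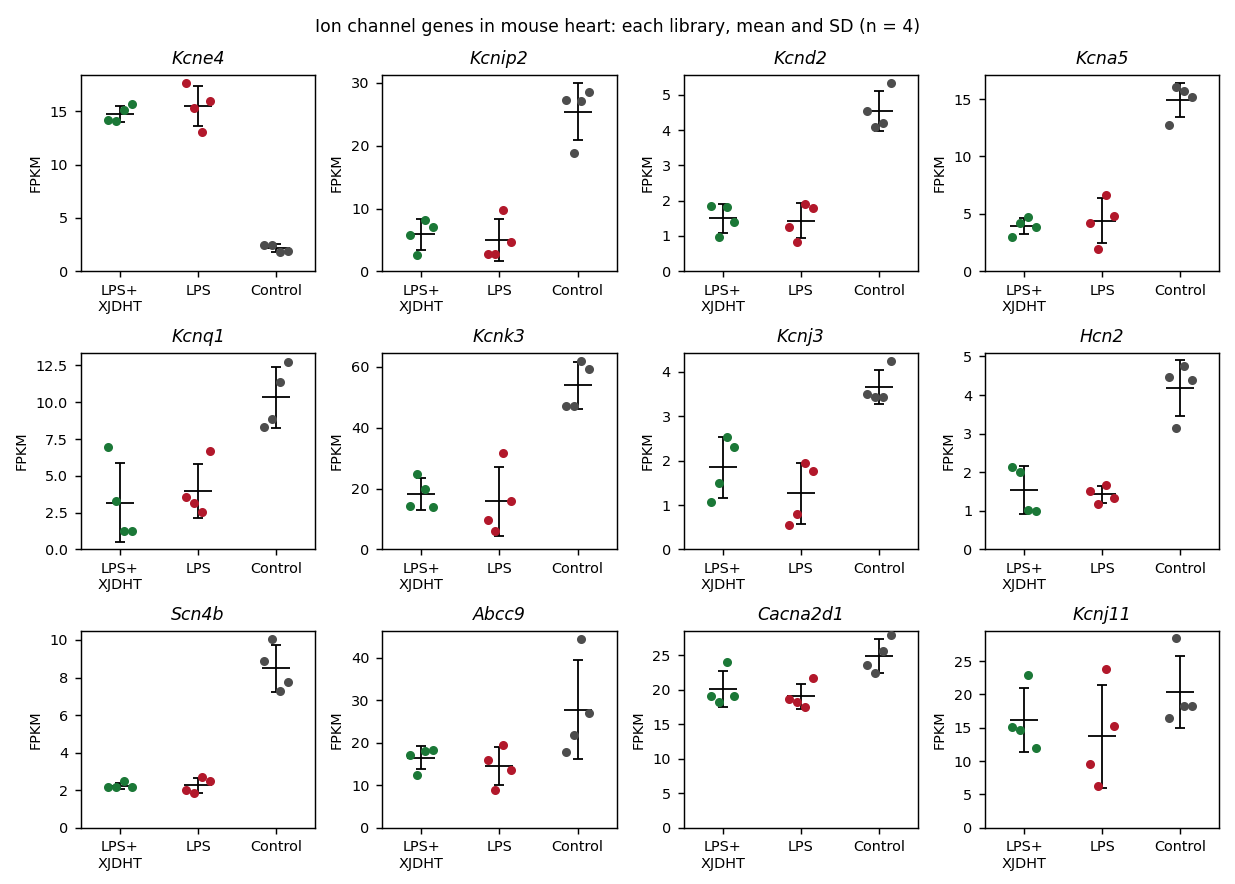
FPKM of 12 ion channel genes in each heart, with LPS+XJDHT, LPS and Control from left to right; points are single mice, the long bar is the mean and the whiskers are the SD (n = 4). Kcne4 is high in both LPS-treated groups, and in Kcnip2, Kcnd2, Kcna5, Kcnq1, Kcnk3, Kcnj3, Hcn2 and Scn4b all Control hearts lie above all LPS-treated hearts.

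Genes of channels that hold the resting potential fell in part. Kcnk3, an acid-sensitive background potassium channel, was at 9.55, 6.10, 31.7 and 15.9 FPKM in LPS hearts and at 47.1, 47.1, 61.7 and 59.3 FPKM in Control hearts, where it had the highest mean level of the 41 genes. The groups did not overlap, though LPS 3 was well above the other LPS hearts (log2 fold change -1.93 ± 0.38, adjusted p = 0.0021). Kcnj2 and Kcnj12 encode pores of the inward rectifier current. Kcnj12 was at 2.66, 1.08, 5.47 and 3.48 FPKM in LPS hearts and at 5.20, 5.58, 7.24 and 7.66 FPKM in Control hearts, where LPS 3 overlapped the Control range (log2 fold change -0.93 ± 0.30, adjusted p = 0.029). Without Control 3, Control 4, LPS 1 or LPS 2 the Kcnj12 call was lost, with adjusted p = 0.058 to 0.071. Kcnj2 was at 2.61, 2.08, 7.55 and 4.85 FPKM in LPS hearts and at 4.99, 4.37, 7.11 and 5.54 FPKM in Control hearts, with LPS 3 above all Control hearts. Kcnj2 did not pass (95% interval -1.01 to 0.20), but without LPS 3 it was lower in LPS hearts at adjusted p = 0.032.

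Kcnj3 and Kcnj5 form the acetylcholine-gated potassium channel of atrium and pacemaker tissue. Kcnj3 was at 0.542, 0.802, 1.94 and 1.77 FPKM in LPS hearts and at 3.51, 3.44, 3.44 and 4.25 FPKM in Control hearts, without overlap (log2 fold change -1.09 ± 0.23, adjusted p = 0.0032). Kcnj5 was at 6.02 ± 2.46 FPKM in LPS hearts and 7.003 ± 1.96 FPKM in Control hearts (SD, n = 4 each), with an interval of the difference from -1.48 to 1.03. ATP-sensitive potassium channels combine Kcnj11 or Kcnj8 pores with the sulfonylurea receptors Abcc9 or Abcc8, and each pore gene lies beside 1 receptor gene: Kcnj8 (chr6:142564837-142571614) beside Abcc9 (chr6:142587862-142702315), and Kcnj11 (chr7:46093953-46100764) beside Abcc8 (chr7:46104523-46180033), all on the minus strand of GRCm38. Abcc9 was at 16.01, 8.79, 19.5 and 13.6 FPKM in LPS hearts and at 17.9, 21.8, 44.5 and 27.0 FPKM in Control hearts, where LPS 3 overlapped the lowest Control heart (log2 fold change -0.86 ± 0.28, adjusted p = 0.029). Without Control 3, Control 4, LPS 2 or LPS 4 the adjusted p of Abcc9 was 0.055 to 0.077. The other 3 genes did not pass: Kcnj11 averaged 13.7 ± 7.71 FPKM in LPS hearts and 20.3 ± 5.44 FPKM in Control hearts, Kcnj8 averaged 3.92 ± 2.45 FPKM in LPS hearts and 4.85 ± 2.40 FPKM in Control hearts, and Abcc8 averaged 1.88 ± 1.06 FPKM in LPS hearts and 2.53 ± 0.847 FPKM in Control hearts (SD, n = 4 each). Without LPS 3, whose Kcnj11 level was 23.8 FPKM, Kcnj11 was lower in LPS hearts at adjusted p = 0.023.

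Abcc9 depended on which transcripts are listed. Abcc9-204, which only the Control and LPS libraries list, was at 0, 0, 0 and 0.763 FPKM in LPS hearts and at 14.1, 15.8, 1.28 and 18.7 FPKM in Control hearts. Control 3, with the low Abcc9-204 value, held 20.2 FPKM of Abcc9-201, which was at 0.799 to 1.04 FPKM in the other Control hearts. With all transcripts of those 8 libraries Abcc9 averaged 14.8 ± 4.42 FPKM in LPS hearts and 40.9 ± 6.75 FPKM in Control hearts (SD, n = 4 each; log2 fold change -1.44 ± 0.22, adjusted p = 0.0015). In LPS+XJDHT 1 and LPS 1 Abcc9-201 was at 0 and Abcc9-203 made up 44.2% and 62.1% of the sum, where it made up 4.34% to 21.4% in the other LPS-treated hearts.

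**Figure D3:**
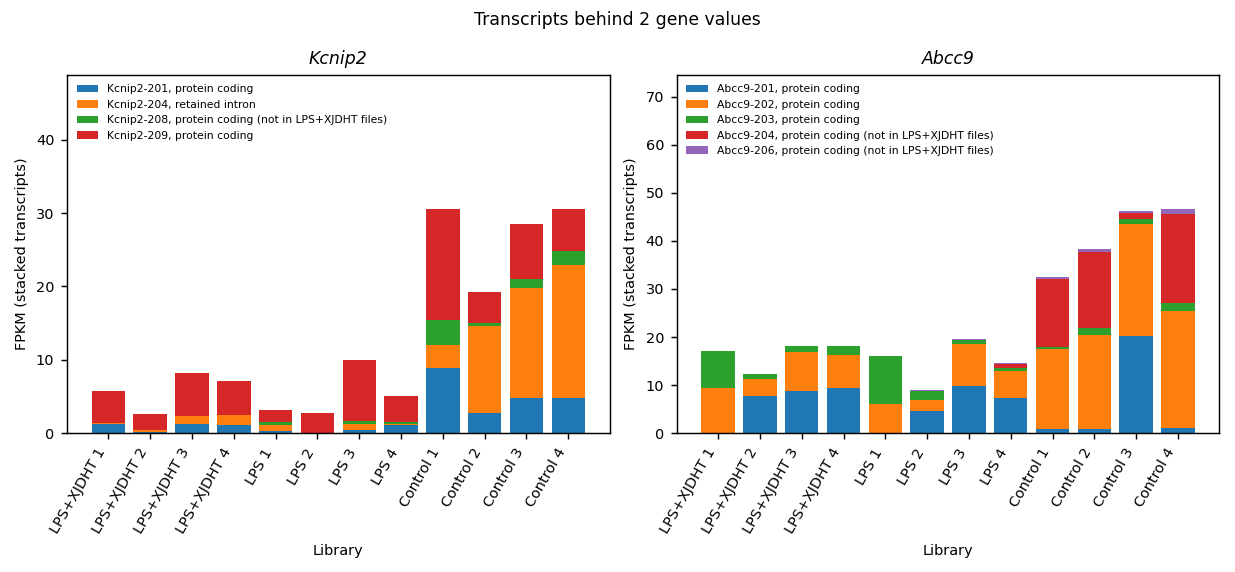
FPKM of each listed transcript of Kcnip2 (left) and Abcc9 (right), stacked per library, with LPS+XJDHT, LPS and Control libraries from left to right. The retained-intron transcript Kcnip2-204 reaches 18.2 FPKM in Control hearts, and Abcc9-204, not listed for LPS+XJDHT, is at 14.1 to 18.7 FPKM in 3 Control hearts.

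Both measured pacemaker genes, which encode channels opened by hyperpolarization and cyclic AMP, fell, where 12% of all tested genes were lower. Hcn2 was at 1.52, 1.18, 1.66 and 1.34 FPKM in LPS hearts and at 4.46, 3.13, 4.75 and 4.38 FPKM in Control hearts (log2 fold change -1.09 ± 0.18, adjusted p = 0.00063). Hcn4, the main pacemaker isoform of the sinoatrial node, was at 0.390, 0.584, 0.667 and 0.413 FPKM in LPS hearts and at 1.06, 1.47, 1.40 and 1.89 FPKM in Control hearts (log2 fold change -0.69 ± 0.14, adjusted p = 0.0024). Neither pair of groups overlapped. Hcn4 entered the test through its Control values, since all 4 Control hearts and 1 LPS+XJDHT heart reached 1 FPKM.

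Of the 4 tested sodium channel genes, the beta subunit gene Scn4b fell and the other 3 did not pass, where 12% of all tested genes were lower and 26.6% higher. Scn4b was at 2.01, 1.86, 2.68 and 2.47 FPKM in LPS hearts and at 8.87, 10.1, 7.29 and 7.75 FPKM in Control hearts. The groups lay far apart (log2 fold change -1.54 ± 0.13, adjusted p = 4.8e-06). Scn7a, a relative of the voltage-gated pores that senses extracellular sodium, was at 4.18 ± 1.97 FPKM in LPS hearts and 4.88 ± 0.763 FPKM in Control hearts (SD, n = 4 each; 95% interval -0.87 to 0.32). Scn4a, the skeletal muscle sodium pore, was listed at 0 in all LPS hearts and at 0.237 to 4.78 FPKM in Control hearts, and was not tested.

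Of the 7 tested calcium channel genes 1 fell and 2 rose, where 12% of all tested genes were lower and 26.6% higher. Cacna2d1, the subunit that carries the L-type pore to the membrane, was at 18.7, 18.3, 17.5 and 21.7 FPKM in LPS hearts and at 23.6, 22.4, 25.7 and 28.0 FPKM in Control hearts. The groups did not overlap, but the difference was small (log2 fold change -0.37 ± 0.11, adjusted p = 0.021), and without Control 3 or Control 4 the adjusted p was 0.052 and 0.062. The sum holds the retained-intron transcript Cacna2d1-211, which averaged 1.18 ± 0.412 FPKM in LPS hearts and 2.82 ± 0.186 FPKM in Control hearts (SD, n = 4 each). With coding transcripts only, LPS 4 overlapped the Control range and the Cacna2d1 call was lost (adjusted p = 0.069). Cacng7, a gamma subunit, was at 4.06, 3.51, 3.54 and 3.48 FPKM in LPS hearts and at 3.08, 2.38, 2.09 and 2.13 FPKM in Control hearts (log2 fold change 0.45 ± 0.12, adjusted p = 0.013). This call was lost under median-ratio scaling (adjusted p = 0.079). Cacna1d, an L-type pore used in pacemaker cells, was at 1.11, 1.28, 1.69 and 0.470 FPKM in LPS hearts and at 0.0454, 0.395, 0 and 0.336 FPKM in Control hearts (log2 fold change 0.82 ± 0.21, adjusted p = 0.0094). Both of its listed transcripts are annotated as retained introns, and it entered the test through 3 LPS hearts and 1 LPS+XJDHT heart. Cacnb2, the main cardiac beta subunit, averaged 8.25 ± 2.58 FPKM in LPS hearts and 15.5 ± 6.65 FPKM in Control hearts (SD, n = 4 each; adjusted p = 0.11), and without Control 3, at 6.502 FPKM, it was lower in LPS hearts (adjusted p = 0.014). The sum holds the retained-intron transcript Cacnb2-211, which averaged 1.62 ± 2.17 FPKM in LPS hearts and 5.77 ± 0.814 FPKM in Control hearts (SD, n = 4 each). With coding transcripts only, the Cacnb2 log2 fold change was 0.0018 (adjusted p = 0.998), against -0.76 for the whole sum. Cacna1c, the ventricular L-type pore, averaged 1.62 ± 0.927 FPKM in LPS hearts and 2.04 ± 1.18 FPKM in Control hearts (SD, n = 4 each; 95% interval -0.93 to 0.51). The non-coding processed transcript Cacna1c-211 made up 37.1% to 100% of that sum in LPS hearts and 13.4% to 100% in Control hearts. With every transcript listed for these libraries Cacna1c averaged 2.08 ± 0.882 FPKM in LPS hearts and 4.69 ± 3.73 FPKM in Control hearts (SD, n = 4 each; log2 fold change -0.65, adjusted p = 0.33). Cacna1h, a T-type pore, averaged 0.692 ± 0.412 FPKM in LPS hearts and 1.14 ± 0.640 FPKM in Control hearts (SD, n = 4 each; 95% interval -0.89 to 0.25).

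Kcna7, Kcnk6 and Cacnb1 did not pass, nor did any of the 7 measured genes below the limit enter the test. Kcnn2, a small-conductance calcium-activated potassium channel, was at 0.305 FPKM in LPS 1 and at 0 in the other LPS hearts, against 2.44, 0.690, 3.15 and 3.01 FPKM in Control hearts. In LPS+XJDHT hearts Kcnn2 was at 0, 0.936, 0.957 and 0.924 FPKM, which overlapped Control 2. Only 3 hearts, all Control, reached 1 FPKM of Kcnn2, so it was present mainly through its Control values. With no limit on low values Kcnn2 was called lower in both LPS and LPS+XJDHT against Control.

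The comparison of LPS+XJDHT with LPS hearts asks what the decoction changes in LPS-treated mice. None of the 34 channel genes changed in either direction by limma, 0 had an unadjusted p below 0.05, and limma-voom on the recovered fragments called 0 as well. Over all tested genes 0% were higher and 0.113% were lower. The fold changes of the channel genes ran from -0.40 to 0.47 on the log2 scale with a median of 0.17, against a median of 0.03 over all genes, and 8 of the 34 were below 0, against 42.7% of all genes. These figures depended on single hearts. Without LPS 2, 20 fold changes were above 0 and 13 below (median 0.04). Without LPS+XJDHT 3 the counts were 19 and 14 (median 0.11), and without LPS 3 they were 29 and 4 (median 0.18). In 0 channel genes did the 4 LPS+XJDHT hearts lie all above or all below the 4 LPS hearts, against 1.95% of all genes above and 0.86% below. The lowest p belonged to Kcnj3, Cacna1d and Kcnj12. Kcnj3 was at 1.06, 1.49, 2.53 and 2.31 FPKM in LPS+XJDHT hearts, overlapping the LPS hearts (log2 fold change 0.35 ± 0.23, adjusted p = 0.99). Kcnj12 was at 2.68, 4.87, 5.23 and 4.48 FPKM in LPS+XJDHT hearts (log2 fold change 0.44 ± 0.30), and Cacna1d at 0.476, 0.382, 1.13 and 0.833 FPKM (log2 fold change -0.32 ± 0.21), each overlapping its LPS values.

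For 5 genes with large LPS changes, the difference between LPS+XJDHT and LPS hearts was bounded to differing degrees. Kcne4 was at 14.2, 14.1, 15.1 and 15.7 FPKM in LPS+XJDHT hearts, and the 95% interval of its log2 difference from LPS hearts ran from -0.31 to 0.19. Scn4b was at 2.15, 2.15, 2.49 and 2.18 FPKM (interval -0.27 to 0.28), and Kcna5 at 3.00, 4.22, 4.71 and 3.89 FPKM (interval -0.58 to 0.47). Wider intervals were found for Kcnip2, at 5.71, 2.56, 8.14 and 7.05 FPKM in LPS+XJDHT hearts (-0.53 to 1.04), and for Kcnk3, at 14.1, 24.8, 19.8 and 14.0 FPKM (-0.44 to 1.22). A log2 difference of 1 lies outside the first 3 intervals and inside the last 2. The LPS+XJDHT mean lay between the LPS and Control means in 21 of the 34 channel genes, 61.8%, against 44.5% of all tested genes. These shares use the same LPS and Control hearts as the other comparisons. The LPS mean enters both gaps, so spread among LPS hearts can also move these shares. In LPS hearts the median coefficient of variation was 45.36% over the channel genes and 22.77% over all tested genes. The part of this spread in the shares was not tested.

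In LPS+XJDHT against Control hearts 9 of the 34 channel genes were lower and 3 higher, against 10.7% and 28.5% of all genes. The median log2 fold change of the 34 was -0.29, against 0.19 over all genes, and 22 of the 34 were below 0, against 35.8% of all genes. All 4 LPS+XJDHT hearts lay below all 4 Control hearts in 9 channel genes and above them in 4, against 11.9% and 30.2% of all genes. All 12 called genes were also called in LPS against Control, which uses the same Control hearts. Kcne4 averaged 14.8 ± 0.767 FPKM in LPS+XJDHT hearts and 2.17 ± 0.353 FPKM in Control hearts (SD, n = 4 each; log2 fold change 2.32 ± 0.11, adjusted p = 2e-07). Among the 9 that fell, the log2 fold changes were -2.01 for Kcnip2, -1.69 for Kcna5, -1.63 for Kcnq1, -1.54 for Kcnk3 and Scn4b, -1.16 for Kcnd2, -1.05 for Hcn2, -0.74 for Kcnj3 and -0.49 for Hcn4, with adjusted p between 5.2e-06 (Scn4b) and 0.025 (Kcnj3). Kcnq1 was at 6.97, 3.27, 1.25 and 1.23 FPKM in LPS+XJDHT hearts, a wider spread than in the Control hearts, all of which were higher. Kcnj3 lost its call without Control 4, LPS+XJDHT 1 or LPS+XJDHT 2 (adjusted p = 0.0605 to 0.0746). Kcnab2 was at 1.49, 1.46, 2.26 and 1.76 FPKM in LPS+XJDHT hearts, all above the Control hearts (log2 fold change 1.19 ± 0.32, adjusted p = 0.013), and Cacng7 was at 3.85, 3.36, 4.59 and 3.59 FPKM, also above all Control hearts (log2 fold change 0.51 ± 0.12, adjusted p = 0.0073). Abcc9, Cacna2d1, Kcnj12 and Cacna1d, called in LPS against Control, had adjusted p = 0.081, 0.052, 0.22 and 0.077 here. Cacna2d1 passed without Control 2, LPS 4 or LPS+XJDHT 3 (adjusted p = 0.016 to 0.047) and under median-ratio scaling (adjusted p = 0.0026). Abcc9 was called lower under median-ratio scaling and without Control 1. Cacna1d was called higher in some alternatives, among them a pseudocount of 0.1, sample quality weights and the fit without LPS 4.

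Channel genes spread more widely between hearts of the same group than the median gene did. The median coefficient of variation over the 34 channel genes was 29.05% in LPS+XJDHT hearts, 45.36% in LPS hearts and 20.78% in Control hearts, against 17.9%, 22.77% and 16.83% over all tested genes. All tested genes were not matched to the channel genes for level or number of transcripts. Of the LPS hearts, LPS 3 had the highest value in 19 of 34 channel genes (55.9%, against 25.1% of all genes) and LPS 2 the lowest in 17 (50%, against 37.1%). LPS+XJDHT 3 was the highest of its group in 18 (52.9%, against 23.7%). The summed macrophage and monocyte markers, 7 measured, were at 91.6, 63.3, 251 and 199 FPKM in LPS 1 to LPS 4, with LPS 2 lowest and LPS 3 highest. The summed cardiomyocyte markers were at 6074, 6665, 7880 and 6536 FPKM in the same hearts, also highest in LPS 3 but lowest in LPS 1. Other lists had another order. Neutrophil markers were at 114, 115, 76.1 and 103 FPKM, and nerve and Schwann cell markers at 17.8, 23.0, 14.1 and 20.5 FPKM, each highest in LPS 2 and lowest in LPS 3. Endothelial markers were at 253.9, 172.2, 234.5 and 225.1 FPKM, highest in LPS 1. The part of these markers in the channel values was not tested.

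**Figure D4:**
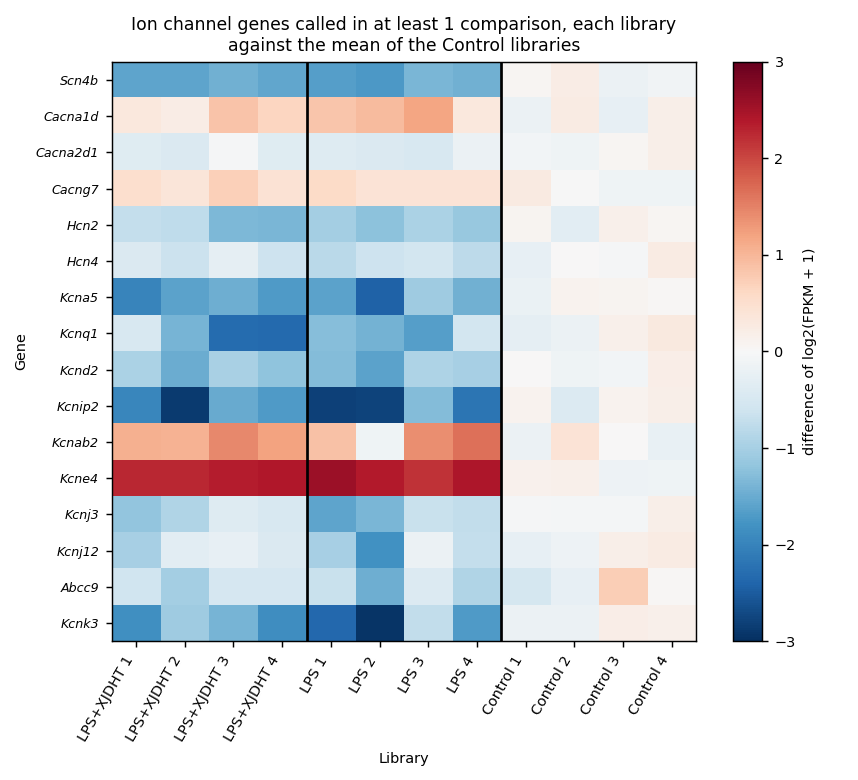
Difference of log2(FPKM + 1) from the mean of the Control libraries, for the 16 channel genes called in at least 1 comparison (rows) and 12 libraries (columns), with LPS+XJDHT, LPS and Control from left to right. Kcne4 is red in all 8 LPS-treated hearts, Scn4b, Kcnip2, Kcna5 and Kcnk3 are blue in all 8, and LPS 2 is the deepest blue for Kcnk3.

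Proteins that bind or regulate these channels were followed in 3 further lists. Of 18 measured partner and scaffold genes 17 were tested, and 7 rose and 2 fell in LPS against Control hearts, with a median log2 fold change of 0.29, where 26.6% of all tested genes were higher and 12% lower. Rrad, a small GTPase that inhibits L-type calcium channels, averaged 128 ± 69.2 FPKM in LPS hearts and 39.0 ± 4.65 FPKM in Control hearts (SD, n = 4 each; log2 fold change 1.55, adjusted p = 0.0014). Cav3, the caveolin of muscle membranes, averaged 72.9 ± 30.3 FPKM in LPS hearts and 32.6 ± 2.52 FPKM in Control hearts (adjusted p = 0.0069). Calm2, Cask, Gem and Popdc2 were among the others that rose. Bves, a cyclic AMP-binding partner of Kcnk potassium channels, averaged 4.31 ± 0.716 FPKM in LPS hearts and 13.0 ± 1.76 FPKM in Control hearts (log2 fold change -1.40, adjusted p = 0.0011), and Rangrf, a channel trafficking factor, averaged 13.5 ± 1.46 FPKM in LPS hearts and 24.0 ± 3.29 FPKM in Control hearts (adjusted p = 0.0034).

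Of 9 tested pumps and exchangers, the sodium pump subunit Atp1b3 rose and Atp1b2 and the pump regulator Fxyd1 fell in LPS against Control hearts, with a median log2 fold change of 0.04, so 1 of 9 was higher and 2 of 9 lower against the same 26.6% and 12% of all genes. Among 14 tested transcription regulators of heart channels, Tbx20 alone fell, at 5.98 ± 2.65 FPKM in LPS hearts and 12.6 ± 1.94 FPKM in Control hearts (SD, n = 4 each; log2 fold change -1.01, adjusted p = 0.0043), and 0 rose. In LPS+XJDHT against Control hearts 5 of the 14 rose, namely Foxo1, Gata6, Irx3, Irx4 and Nfatc3, and 0 fell, where 28.5% of all tested genes were higher and 10.7% lower. Partner genes numbered 6 higher and 2 lower there, and pumps 1 higher and 3 lower. In LPS+XJDHT against LPS hearts 0 genes of these 3 lists were called. Any link of these lists to the channel genes was not tested.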

How the data were processed

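RNA of whole heart, depleted of ribosomal RNA, was sequenced from 12 mice, and groups were taken from the labels. The deposited files give 1 value per transcript and library. No unit is named in the headers; the values were read as FPKM made by the authors, because the value multiplied by transcript length was within 0.1 of a whole multiple of 1 constant per library for 97.6% to 97.8% of values. The submitters' processing notes name mm10 and limma; which program aligned or quantified the reads, and whether by strand, is not given in the sources used here. LPS+XJDHT files (4) list 35802 transcripts and the 8 others 36293, with 33137 in both.

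FPKM were summed per gene over the 24723 shared transcripts that GENCODE annotates for GRCm38 (12866 genes). The 8377 shared rows without an Ensembl identifier, 6.2% to 8% of the FPKM, were not assigned to genes. The 11509 genes that reached 1 FPKM in no fewer than 4 libraries were fitted as log2(FPKM + 1) in 1 model of all 12 libraries with limma 3.58.1 (intensity trend) in R 4.3.3, two-sided, with Benjamini-Hochberg adjustment over all of them, and intervals are 95% intervals from the same fit. Tables were made with pandas 2.3.3 and NumPy 2.4.6 under Python 3.11.15, and plots with matplotlib 3.10.9. The fit was tested on simulated data. Depth per library was 73.76 M to 77.81 M fragments, and intervals and spreads cover these 4 mice per group.

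Channel genes, lists and tests were chosen with earlier results of these data known. Genes given with values were called genes that averaged 2 FPKM or more in the higher group without overlap between LPS and Control, up to 15 each way; a panel of genes of the main cardiac currents, some of which are not reported here; and the 3 with the smallest p in LPS+XJDHT against LPS. Alternatives were filters, pseudocounts of 0.1 and 0.5, median-ratio scaling, coding transcripts only, every Control and LPS transcript, removal of mitochondrial and haemoglobin genes, limma-voom, sample weights, fits of 2 groups, and leaving out each library. Promoter windows are from RefSeq (GRCm38.p6).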

Additional observations from a re-analysis of the deposited data

Results flagged for a closer look

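In 9 of 78 groups of 4 hearts, over 26 channel genes, the highest or lowest heart stood apart from the other three by Dixon's criterion for the gap over the range, where chance alone flags about 1 in 20 groups. High hearts were LPS+XJDHT 3 for Cacna2d1 at 24.08 FPKM and for Scn4b at 2.486 FPKM, LPS 4 for Cacnb2 at 12.12 FPKM, LPS 1 for Cacng7 at 4.06 FPKM, Control 2 for Kcnj11 at 28.39 FPKM and Control 4 for Kcnj3 at 4.248 FPKM. Low hearts were LPS+XJDHT 1 for Kcnj5 at 0.1997 FPKM, where the other LPS+XJDHT hearts were at 6.98 to 8.34 FPKM, LPS 2 for Cacna1h at 0.08088 FPKM, and Control 2 for Kcnip2 at 18.79 FPKM.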

How the results depend on the processing

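The alternatives tested 17 to 41 channel genes, against 34 as reported. Across them 8 to 15 channel genes were lower in LPS against Control (12 as reported), 6 to 11 were lower in LPS+XJDHT against Control (9 as reported), and 0 were called in either direction in LPS+XJDHT against LPS. Kcne4, Kcnip2, Kcnk3, Kcna5, Scn4b, Kcnd2, Kcnj3, Hcn2 and Hcn4 kept their LPS call under every alternative in which they were tested. The number higher in LPS against Control, 4 as reported, was 1 with a limit of 5 FPKM, 2 in a fit of the 2 groups alone, 2 with median-ratio scaling, 2 with every transcript that Control and LPS files list, and 2 to 4 with single libraries left out. Only 17 channel genes were tested at 5 FPKM, 29 in the 2-group fit and 32 with every Control and LPS transcript. Cacng7 was not tested at 5 FPKM, and Cacna1d and Kcnab2 were tested in none of these 3 settings. Among all genes 2290 of 6647 were higher at 5 FPKM, 2707 of 10908 in the 2-group fit and 2665 of 11089 with every such transcript. The number higher in LPS+XJDHT against Control, 3 as reported, was 1 with a limit of 5 FPKM, 5 with a pseudocount of 0.1, 6 with sample quality weights, and 3 to 5 with single libraries left out. At 5 FPKM 17 channel genes were again tested, and 2422 of 6647 genes in all were higher. Uncalled fold changes turned sign in LPS against Control for Cacna1c without Control 1 and without LPS 3 (0.016 each, in a range of -0.41 to 0.016 with single libraries left out) and for Cacnb2 with coding transcripts only (0.0018, against -0.76 as reported), and apart from what each alternative removes the cause was not tested. Of the panel genes whose fold change is not given, 11 of 20 turned sign somewhere in LPS+XJDHT against LPS with 0 called, and 6 of 12 in LPS+XJDHT against Control with 1 called somewhere. Abcc9 was also lost in LPS against Control in a fit of the 2 groups alone (adjusted p = 0.055) and with limma-voom (0.072), Kcnq1 with sample quality weights (0.069), Cacna2d1 with coding transcripts only (0.069), and Kcnab2 with a pseudocount of 0.1 (0.053), median-ratio scaling (0.051) and limma-voom (0.12). In LPS+XJDHT against Control Kcnj3 was lost with a pseudocount of 0.1 (0.054) and Cacng7 with median-ratio scaling (0.068). No paired analysis was possible because the mice of different groups share no number in the labels. Gene values cover only transcripts listed in all 12 libraries, which limits Abcc9, Cacna1c and Kcnab2 most. This limit is one-sided for the channel transcripts that only the Control and LPS libraries list. Each of them averaged below 0.5 FPKM in LPS hearts and more in Control hearts, so the shared set leaves out transcripts lower in LPS hearts. Low genes rest on few fragments: the lowest library held 0 fragments of Cacna1d and 4 of Kcnab2.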
